A study of Saccharomyces cerevisiae with 35 samples.

Results

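The 12 bulk libraries taken 90 and 120 min and 45 and 60 min after rapamycin was added to budding yeast (Saccharomyces cerevisiae) were compared, 6 late against 6 mid libraries out of the 33 bulk libraries of the series. Libraries were placed in a window by their labelled time and paired by culture number, with no measured value used. The late window held 90 and 120 min and the mid window 45 and 60 min, each time once in each of 3 cultures. All cultures were wild-type FY4/5 grown in the rich medium YPD at 30 °C for 4 hours and then given 200 ng/mL rapamycin, and every library compared here came after the drug. Cells of a 1 mL portion were pelleted and frozen at 11 times before and up to 120 min after the drug, RNA was extracted, and 3′ end libraries were made from polyadenylated RNA. The series' single-cell libraries, from other cultures, stop at 60 min, so the late window lies beyond the hour that they cover. No culture without rapamycin was sampled at 45 to 120 min, so time in culture and time in drug cannot be told apart, nor can time and the sample barcode, which was the same for a given time in all cultures.

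Rapamycin binds the protein encoded by FPR1, and the pair inhibits TORC1, the kinase complex that couples nutrients to growth. Active TORC1 promotes transcription of ribosomal protein and ribosome biogenesis genes and holds back the transcription factors Gln3 and Gat1 (nitrogen catabolite repression), Msn2 and Msn4 (general stress) and Rtg1 and Rtg3 (the retrograde pathway). In yeast, inhibition of TORC1 also promotes translation of Gcn4, the activator of amino acid biosynthesis genes, and recycling of cell material by autophagy.

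Depth limited what could be seen. Late libraries held 34798 to 109779 counts (median 40404) and mid libraries 12358 to 63898 (median 31401), and 910 of 5843 features passed a filter on low counts. A single feature, the uncharacterised gene YNL143C, took 18.8 to 20.3% of late and 18.8 to 20.2% of mid counts in culture 1, and in cultures 2 and 3 it took 28.5 to 34.7% of late and 29.2 to 32.3% of mid counts. Its coding strand carries a run of 32 A, the longest in any of the 5800 features scanned, and reverse transcription was primed with oligo(dT); the part of that run in the count was not tested. It is shown in capitals within 92 bases of chrXIV:356983-357074 (minus strand, R64, the RefSeq assembly of sacCer3).
YNL143C: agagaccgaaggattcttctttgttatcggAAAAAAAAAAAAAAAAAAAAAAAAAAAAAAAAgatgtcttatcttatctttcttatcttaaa
The log2 change of YNL143C between windows was -0.0022, and leaving it out of the counts gave 105 called genes. FPR1, the gene deleted in other strains of the series, was counted in all 12 libraries, at 3580 to 5400 CPM in late and 3120 to 7560 CPM in mid libraries, where CPM are counts scaled to a common library size after TMM normalization. The mating type markers summed to 4 late and 2 mid counts for type a and to 0 in both windows for type alpha.

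Genes lower at 90 and 120 min than at 45 and 60 min included 42 of ribosomal proteins, 5 of glycolysis and fermentation and 3 of histones, and no gene of those lists was called higher, except 1 of glycolysis and fermentation with RLE size factors. Genes called higher included 5 of general stress, 5 chaperones and 2 of the respiratory chain, and no gene of those lists was called lower. Of the 910 genes tested, 109 changed at an adjusted p under 0.05 in edgeR's quasi-likelihood test with culture as a block (12%), 36 of them higher (3.96%) and 73 lower (8.02%) in the late window. The change was at least 2-fold for 24 of the rises and 52 of the falls, and 106 of the 109 changes had the same sign in all 3 cultures. The calls were made on these same libraries, so that agreement is no separate support. Its share over all 910 genes was not counted. The median log2 change of all tested genes was -0.06; with RLE size factors it was 0.06, and 56 genes were called higher and 54 lower. In 37 genes (4.07%) the late and mid libraries did not overlap, namely 14 called higher, 16 called lower and 7 not called. The counts are relative to each library, and in bulk cultures fewer cells with a transcript and less of it per cell cannot be told apart.

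**Figure D1:**
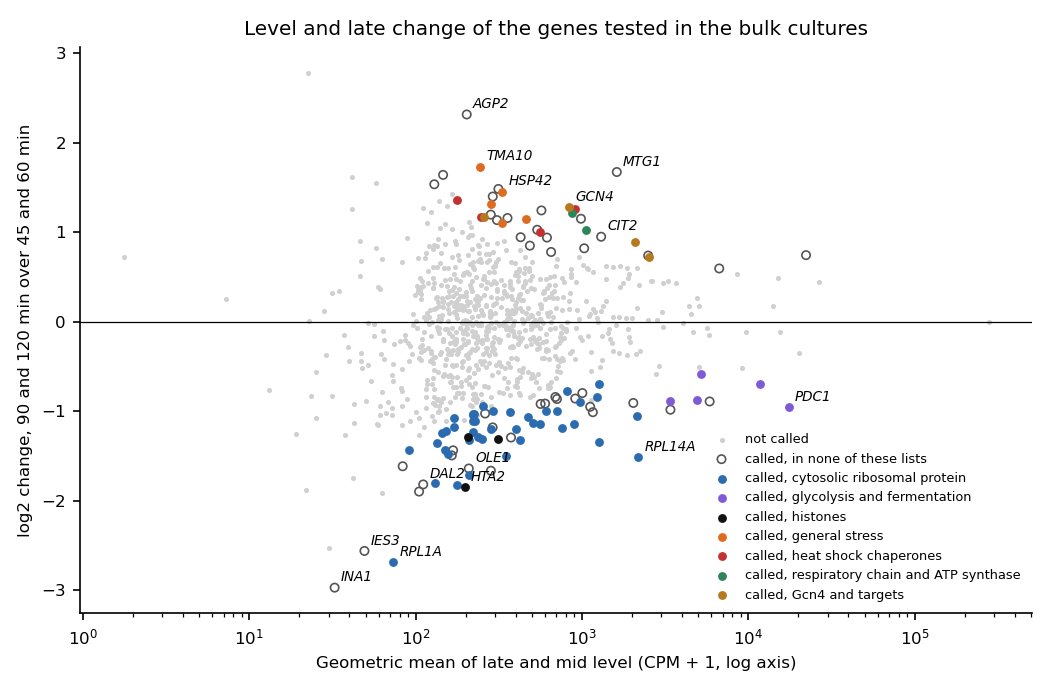
Log2 change of each of the 910 tested genes between the late (90 and 120 min) and mid (45 and 60 min) libraries against the geometric mean of its late and mid CPM (log axis), with called genes coloured by gene list. The 42 called ribosomal protein genes all lie below zero, and AGP2 has the highest value among the called genes.

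The number of calls changed with the times and cultures used. The contrast of 120 min alone with the mid window called 119 genes and that of 90 min alone called 14. The late window against 45 min alone gave 115 calls and against 60 min alone 20. Without culture 1 there were 24 calls, without culture 2 there were 70 and without culture 3 there were 15. Among the 27 called genes named by rule, AGP2, MTG1, SSA1, GCN4 and HTA2 kept their call without any 1 culture, and each of the others lost it without at least 1 (adjusted p 0.0634 to 0.447). Leaving out 1 library of the 12 left 63 to 107 calls; the count moved by over 1.5 times without the 45 min library of culture 2 (72) or culture 3 (63) and without the 60 min library of culture 1 (68) or culture 3 (70).

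Ribosomal protein genes made up 42 of the 73 falls. Of 138 genes of cytosolic ribosomal proteins 131 were tested, and 42 fell, none rose and 89 did not pass the test, against 8.02% lower among all genes tested. Their median log2 change was -0.85, and 124 of the 131 values were negative. The 42 falls became 10 without culture 1, 26 without culture 2, 3 without culture 3 and 6 with no filter on low counts. The share of library counts on the 138 genes was 1.95 to 4.22% in late libraries (median 2.71%), 3.76 to 8.05% in mid libraries (median 4.72%) and 22.9 to 28.8% in the 3 untreated libraries. The share was 4.73 to 8.05% at 45 min, 3.76 to 4.72% at 60 min, 1.95 to 4.22% at 90 min and 2.48 to 2.78% at 120 min.

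RPL14A, encoding a protein of the large subunit, had 921, 1130 and 2000 CPM in the lowest, median and highest late library, against 2300, 3480 and 6140 CPM in mid libraries. No late library reached the lowest mid library, and its log2 change was -1.51 (SE 0.23, adjusted p = 3.26e-06). RPS12, of the small subunit, had 469, 766 and 1330 CPM in late and 1530, 1820 and 2640 CPM in mid libraries, again without overlap (log2 change -1.34, SE 0.23, adjusted p = 4.11e-05). The deepest fall in the list was that of RPL1A (large subunit), at 0, 26.4 and 79.0 CPM late and 75.6, 184 and 278 CPM mid, with a log2 change of -2.68 (SE 0.57, adjusted p = 0.00101). Its near-identical copy RPL1B had a log2 change of 1.26 and did not pass the test (adjusted p = 0.235); how reads were shared between the copies was not stated, so both values are uncertain. RPL26B (26.3, 69.3 and 87.6 CPM late, 132, 206 and 496 CPM mid) and RPL9A (26.3, 99.0 and 133 CPM late, 217, 340 and 419 CPM mid) did not overlap between windows and had log2 changes of -1.80 and -1.82. The end of RPL9A lies 224 bases from that of ARO2 on the opposite strand, which had 468 late and 350 mid counts against 34 and 68. The strand used in counting was not stated, so the value of RPL9A is uncertain. RPS21B had 52.7, 77.1 and 237 CPM late against 186, 411 and 534 CPM mid (log2 change -1.72), and here the highest late library passed the lowest mid one. RPS3 fell to 138, 260 and 448 CPM late against 227, 562 and 1320 CPM mid (log2 change -1.32, adjusted p = 0.00921), a call that ended without the 60 min library of culture 3 (adjusted p = 0.0893). RPL3 had 290 to 613 CPM late and 639 to 971 CPM mid, without overlap, and missed the threshold (log2 change -0.74, adjusted p = 0.0534). It passed with the 12 libraries alone (adjusted p = 0.0192), a minimum count of 20 (0.0496), DESeq2 (0.0365) and without libraries under 10000 counts (0.0243).

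Many ribosomal proteins are encoded by pairs of near-identical genes, and both members were tested in 53 pairs. Both fell in 3 pairs, 1 of the pair in 24 and neither in 26, while 8 of 18 tested genes with no lettered copy fell. How reads were shared between copies was not stated, so which member of a pair fell is uncertain. Of 64 genes listed under ribosome biogenesis, 8 were tested and FPR3 fell (26.3 to 369 CPM late, 186 to 694 CPM mid). That is 1 fall among 8, where 8.02% of all genes tested fell. FPR3 had 45.5 to 375 CPM untreated, so its mid level was not below its untreated range. The whole list held 0.0546 to 0.110% of late, 0.0782 to 0.186% of mid and 0.458 to 0.792% of untreated counts. NSR1, a nucleolar protein of that pathway, had at most 79.0 CPM late and 75.6 CPM mid against 228 to 574 CPM untreated.

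**Figure D2:**
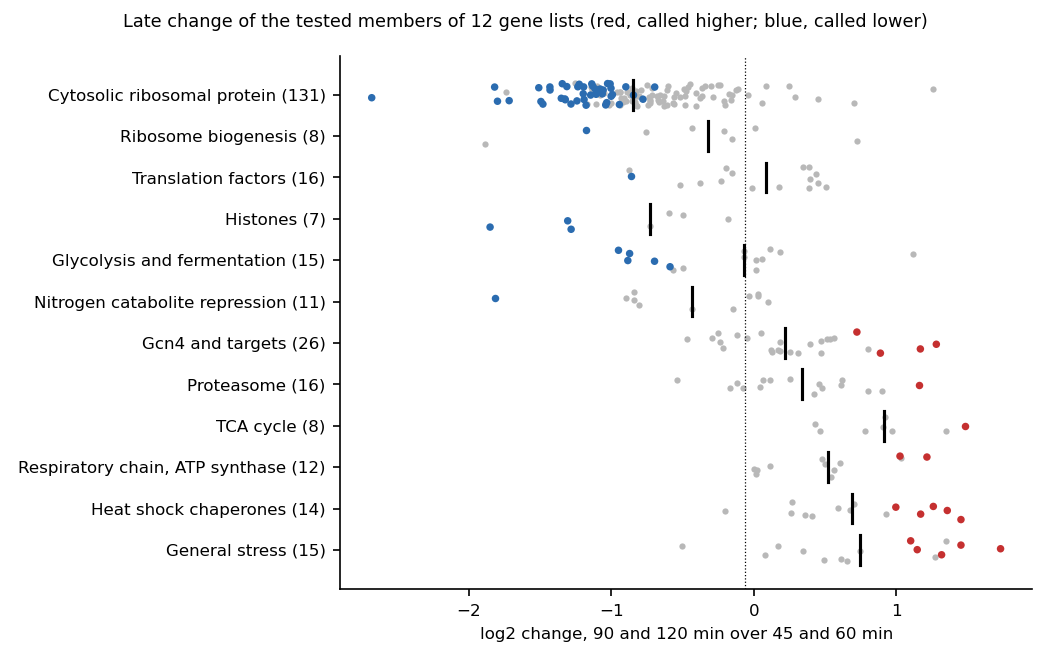
Log2 change, late over mid, of each tested member of 12 gene lists (number tested in brackets), with list medians as black bars, the median of all tested genes as a dotted line, and called genes in red (higher) and blue (lower). The ribosomal protein list has its median at -0.85, and the general stress list at 0.75.

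Of 10 histone genes, whose transcripts are made in S phase, 7 were tested, all 7 values were negative, and 3 fell (HTA2, HHT1 and HTA1; 1 or 2 without 1 culture and 1 with no filter). By comparison, 8.02% of all genes tested fell, and their median log2 change was -0.06. HTA2, encoding histone H2A, had 26.5, 73.7 and 211 CPM in late libraries, against 231, 396 and 529 CPM in mid libraries. All 6 late libraries lay below all 6 mid libraries, and the log2 change was -1.85 (SE 0.37, adjusted p = 0.000481). HHT1, for histone H3, had 89.5 to 477 CPM late and 227 to 740 CPM mid (log2 change -1.31), and HTA1, the other H2A gene, 72.7 to 211 CPM late and 139 to 605 CPM mid (log2 change -1.28), both with overlap. The list took 0.109 to 0.273% of late and 0.255 to 0.394% of mid counts. The untreated share was 0.234 to 0.332%, within the range of the windows.

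Of 15 tested genes of glycolysis and fermentation, 5 fell (PDC1, PGK1, ADH1, ENO2 and FBA1), none rose and the list's median log2 change was -0.07. The share called lower over all genes tested was 8.02%, and their median was -0.06. PDC1, pyruvate decarboxylase, is among the most counted genes of these libraries, with 9770, 11600 and 19700 CPM late and 17800, 24100 and 31100 CPM mid (log2 change -0.95, SE 0.24, adjusted p = 0.00431). A single late library, 90 min of culture 3, came above the lowest mid library. PGK1, phosphoglycerate kinase, had 3110 to 4370 CPM late and 4840 to 8730 CPM mid, and ADH1, alcohol dehydrogenase, 1880 to 3270 CPM late and 3700 to 5380 CPM mid; neither overlapped. TDH3, glyceraldehyde-3-phosphate dehydrogenase, had 4320 to 6530 CPM late and 4160 to 6860 CPM mid, with a log2 change of -0.07 (adjusted p = 0.889). The list held 4.06 to 6.19% of late counts, against 5.93 to 8.23% of mid counts. Without 1 culture the list's median was -0.35 to -0.30, and the 5 falls became 0 without culture 1, 3 without culture 2, 0 without culture 3 and 0 with no filter. With RLE size factors the median became 0.04, with 1 gene called higher and 4 lower.

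Of 58 general stress genes, of the kind driven by Msn2 and Msn4, 15 were tested, 5 rose (TMA10, HSP42, PRX1, TFS1 and GLK1), none fell, and 14 of the 15 values were positive, with a median log2 change of 0.75. Over all genes tested 3.96% rose, and the median log2 change was -0.06. The 5 rises became 2 without culture 1, 4 without culture 2 and 1 without culture 3. The 58 genes, called or not, held 2.28 to 3.19% of late and 1.59 to 1.95% of mid counts, so all late libraries lay above all mid libraries. Their untreated share was 0.229 to 0.973%. The 58 genes had 9738 late counts, and the 5 called genes only 170 to 247 each, so the share rests mostly on genes not called. TMA10, a protein found with ribosomes, had 184, 363 and 760 CPM late and 38.1, 125 and 378 CPM mid (log2 change 1.73, SE 0.40, adjusted p = 0.00233). PRX1, the mitochondrial peroxiredoxin, had 237, 454 and 826 CPM late and 69.4, 152 and 305 CPM mid (log2 change 1.32). GLK1, glucokinase, had 316 to 663 CPM late and 165 to 286 CPM mid, without overlap, and TFS1, an inhibitor of carboxypeptidase Y, 448 to 951 CPM late and 185 to 555 CPM mid. HSP26, a small heat shock protein, had too few counts for the test, with 112 late counts against 7 mid counts. Of the late counts, 67 and 31 were in the 120 min libraries of cultures 1 and 3, while the 120 min library of culture 2 had 3. HSP12 and CTT1, the other well-known members, had 5 and 8 late and 0 and 11 mid counts and gave no comparison.

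Of 23 heat shock chaperone genes 14 were tested, 5 rose (SSA1, HSP42, AHA1, YDJ1 and SIS1) and none fell, against 3.96% higher among all genes tested. The list's median log2 change was 0.69, with 13 positive values, against a median of -0.06 over all genes tested. The 5 rises became 2 without culture 1, 4 without culture 2 and 1 without culture 3. SSA1, a cytosolic Hsp70, had 659, 1390 and 2450 CPM late and 378, 522 and 953 CPM mid (log2 change 1.26, SE 0.26, adjusted p = 0.00061). It differed between the late times, with 659 to 875 CPM at 90 min and 1910 to 2450 CPM at 120 min, a log2 difference of 1.44 (adjusted p = 0.00857). SSA2, its near-identical copy, had a log2 change of 0.41 late over mid (adjusted p = 0.304). The sharing of reads between SSA1 and SSA2 was not stated, so the split between them is uncertain. YDJ1 (237 to 582 CPM late, 0 to 229 CPM mid) and SIS1 (184 to 328 CPM late, 16.5 to 229 CPM mid) are Hsp40 partners of Hsp70, and AHA1 (448 to 1040 CPM late, 191 to 590 CPM mid) activates Hsp90. SIS1's call ended without any 1 of 6 libraries (adjusted p 0.0619 to 0.195: culture 2 at 45, 90 and 120 min, culture 1 at 90 and 120 min, culture 3 at 60 min). The list held 0.492 to 1.20% of late counts, 0.420 to 0.825% of mid counts and 0.798 to 0.957% of untreated counts.

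HSP42, a small heat shock protein that belongs to both lists, had 179, 508 and 826 CPM in late libraries and 98.8, 170 and 416 CPM in mid libraries (log2 change 1.46, SE 0.37, adjusted p = 0.00431), with overlap. Its promoter is shown because AGGGG, the core of the stress response element bound by Msn2 and Msn4, occurs in it 3 times on the printed strand. The stretch runs from 250 bases before to 50 bases after the annotated start, chrIV:806371-806670 (plus strand, R64, RefSeq), with the matches in capitals.
HSP42: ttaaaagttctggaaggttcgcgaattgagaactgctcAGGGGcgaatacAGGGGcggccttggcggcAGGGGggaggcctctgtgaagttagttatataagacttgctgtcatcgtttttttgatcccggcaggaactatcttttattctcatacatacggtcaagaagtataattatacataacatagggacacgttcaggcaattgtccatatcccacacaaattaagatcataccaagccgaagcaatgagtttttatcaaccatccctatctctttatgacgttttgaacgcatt
AGGGG was present on either strand in 14 of 36 promoters of genes that rose (38.9%), in 9 of 42 of ribosomal protein genes that fell (21.4%), in 7 of 31 of the other genes that fell (22.6%) in 240 of 907 of genes tested in bulk (26.5%) and in 21.7% of 5799 promoters of the same length. SSA1, PRX1, TFS1 and GLK1 were among those with a match and TMA10 was not.

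**Figure D3:**
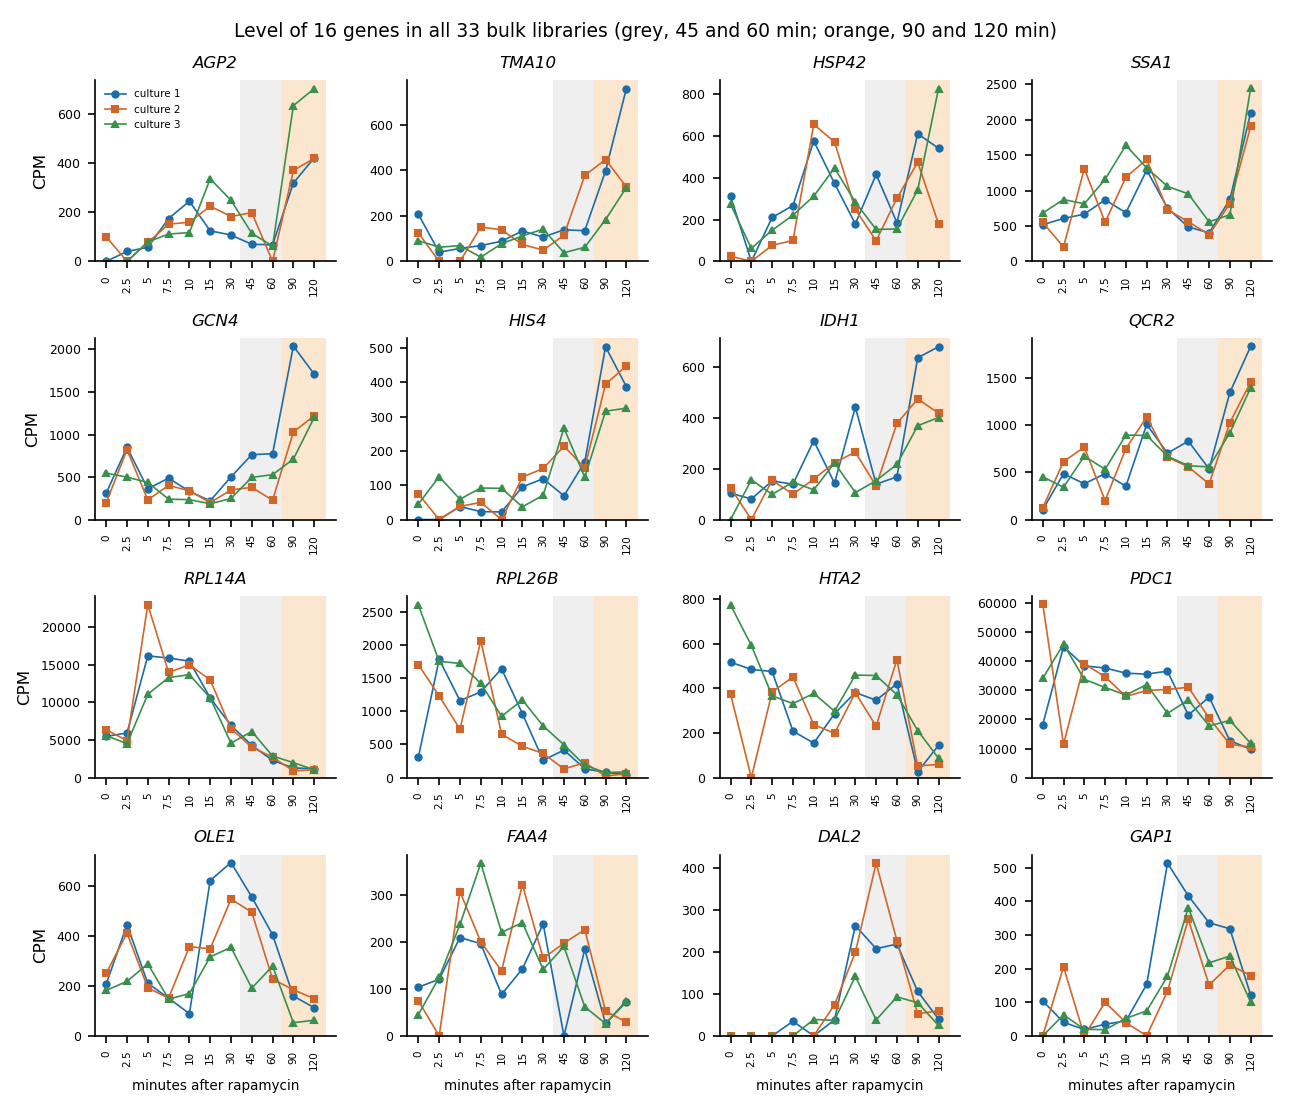
CPM of 16 genes (linear axes from 0) in each of the 33 bulk libraries by minutes after rapamycin, 1 line per culture, with 45 and 60 min shaded grey and 90 and 120 min shaded orange; times are evenly spaced, not to scale. AGP2, QCR2 and HIS4 have every late value above every mid value, and RPL14A, RPL26B and HTA2 every late value below.

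Of 41 respiratory chain and ATP synthase genes 12 were tested, all 12 values were positive, and 2 rose (1 without culture 1 or culture 3). For all genes tested the share that rose was 3.96% and the median log2 change -0.06. QCR2, a subunit of the cytochrome reductase complex, had 922, 1380 and 1840 CPM late and 378, 560 and 833 CPM mid (log2 change 1.22, SE 0.26, adjusted p = 0.00101). ATP1, a subunit of the mitochondrial ATP synthase, had 922, 1600 and 2180 CPM late and 419, 768 and 908 CPM mid (log2 change 1.03, SE 0.26, adjusted p = 0.00463). Neither gene overlapped between windows, and the list held 0.998 to 1.80% of late and 0.784 to 1.02% of mid counts. All 8 tested citric acid cycle genes of 15 had positive values and 1 rose, IDH1, a subunit of isocitrate dehydrogenase, at 369, 446 and 679 CPM late and 132, 160 and 378 CPM mid (log2 change 1.48, SE 0.34, adjusted p = 0.00206). MDH1, malate dehydrogenase, was higher at 120 than at 90 min (log2 difference 1.32, adjusted p = 0.0199). CIT2, the peroxisomal citrate synthase and a classic retrograde target, had 1450, 1690 and 2350 CPM late and 560, 709 and 1610 CPM mid (log2 change 0.95, SE 0.25, adjusted p = 0.00545), with overlap. Genes of the mitochondrial genome summed to 2 late and 6 mid counts.

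Of GCN4 and its targets, 44 genes, 26 were tested, 4 rose (GCN4, HIS4, LYS20 and HOM2), none fell, and the median log2 change was 0.22. Among all genes tested 3.96% were called higher. The 4 rises became 1 without culture 1, 2 without culture 2, 1 without culture 3 and 2 with no filter. The GCN4 transcript itself had 711, 1210 and 2040 CPM late and 227, 512 and 774 CPM mid (log2 change 1.28, SE 0.25, adjusted p = 0.000481). LYS20, homocitrate synthase of lysine synthesis, had 2140 to 3500 CPM late and 1000 to 1960 CPM mid, without overlap, and HOM2, of the threonine and methionine branch, 1980 to 4190 CPM late and 801 to 2960 CPM mid. The list's share was 2.67 to 3.00% at 45 min, 2.94 to 3.38% at 60 min, 3.70 to 4.46% at 90 min and 2.85 to 3.48% at 120 min. ARG4, argininosuccinate lyase, was lower at 120 than at 90 min (log2 difference -2.06, adjusted p = 0.0482).

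HIS4, an enzyme of histidine synthesis and a long-used reporter of Gcn4, had 316, 392 and 504 CPM in late libraries and 69.4, 160 and 267 CPM in mid libraries. The windows did not overlap, with a log2 change of 1.17 (SE 0.38, adjusted p = 0.0302), but the call ended without any 1 of 7 libraries (adjusted p 0.0536 to 0.112: culture 1 at 60, 90 and 120 min, culture 2 at 45, 90 and 120 min, culture 3 at 60 min). Its promoter (chrIII:68284-68583, minus strand, R64, RefSeq) carries TGACTC, the core of the Gcn4 site, at 2 places, in capitals.
HIS4: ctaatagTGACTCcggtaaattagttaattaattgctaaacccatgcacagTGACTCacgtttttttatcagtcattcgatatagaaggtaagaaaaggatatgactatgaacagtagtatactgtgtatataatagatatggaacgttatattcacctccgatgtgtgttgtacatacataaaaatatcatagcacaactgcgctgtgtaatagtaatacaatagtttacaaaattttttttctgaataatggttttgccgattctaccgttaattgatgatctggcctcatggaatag
TGACTC on either strand was in 5 of 36 promoters of genes that rose (13.9%), in 5 of 42 of ribosomal protein genes that fell (11.9%), in 104 of 907 of genes tested in bulk (11.5%) and in 8.14% of all promoters, so the share among the rises lay near that of tested genes. HOM2 had a match, and GCN4 and LYS20 had none.

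Of 30 nitrogen catabolite repression genes 11 were tested, 1 fell (DAL2), none rose, and the median log2 change was -0.43. This 1 fall of 11 lies near the 8.02% called lower among all genes tested. With no filter the median over 30 genes turned to 0.026 with 0 calls, and leaving out any 1 culture also gave 0 calls. Their share was 0.891 to 1.28% of late counts, 1.02 to 1.40% of mid counts and 0.121 to 0.798% of untreated counts. GAP1, the general amino acid permease, had 100, 195 and 318 CPM late, 151, 341 and 416 CPM mid and at most 104 CPM untreated (log2 change -0.81, adjusted p = 0.169). MEP2, an ammonium permease, had 149 to 716 CPM late and 155 to 892 CPM mid (log2 change 0.03, adjusted p = 0.976). DAL5 and DAL80 had 13 and 3 late and 5 and 12 mid counts, too few to compare.

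DAL2, allantoicase of the allantoin pathway, had no count in the untreated libraries, 25.0, 56.2 and 106 CPM late and 38.1, 214 and 412 CPM mid (log2 change -1.82, SE 0.53, adjusted p = 0.0145). The windows overlapped through culture 3, and the call ended without any 1 of 4 libraries (adjusted p 0.0604 to 0.321: culture 2 at 45 and 90 min, culture 1 at 60 and 120 min). Its promoter holds GATAAG, the site of GATA factors such as Gln3, at 2 places over both strands (chrIX:410557-410856, plus strand, R64, RefSeq, matches in capitals).
DAL2: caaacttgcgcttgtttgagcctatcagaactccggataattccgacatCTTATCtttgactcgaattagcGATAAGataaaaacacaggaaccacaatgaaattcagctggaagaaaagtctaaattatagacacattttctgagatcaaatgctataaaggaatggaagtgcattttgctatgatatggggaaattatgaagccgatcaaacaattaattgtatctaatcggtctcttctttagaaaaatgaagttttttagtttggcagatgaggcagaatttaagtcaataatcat
GATAAG was in 8 of 36 promoters of genes that rose (22.2%), in 5 of 31 of genes outside the ribosomal proteins that fell (16.1%), in 145 of 907 of genes tested in bulk (16%) and in 14.7% of all promoters.

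**Figure D4:**
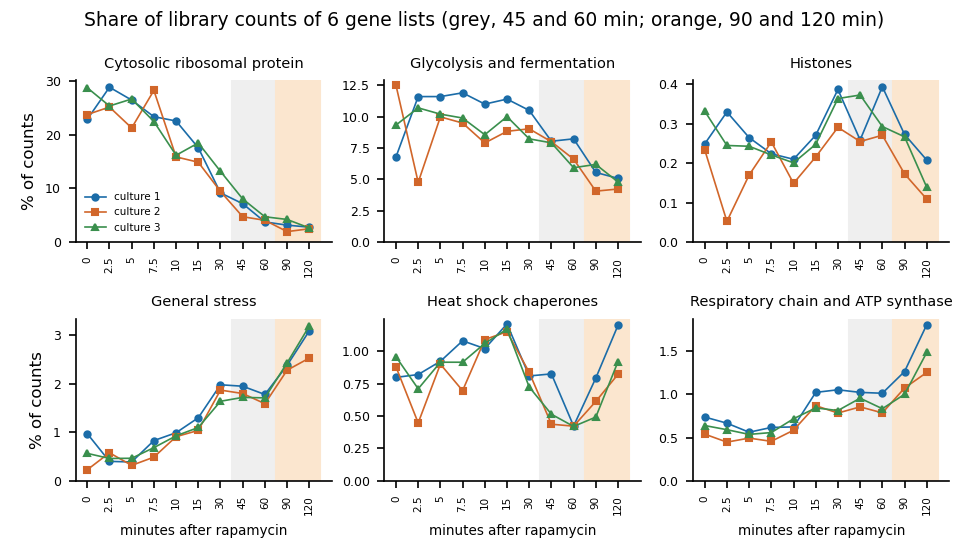
Percent of library counts on the genes of 6 lists (linear axes from 0) in each of the 33 libraries by minutes after rapamycin, 1 line per culture, with the mid window shaded grey and the late window orange. General stress genes take 2.28 to 3.19% of late counts and 1.59 to 1.95% of mid counts.

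AGP2, a membrane protein that regulates uptake of polyamines and carnitine, had the largest log2 change among the 36 genes called higher. It had 318, 419 and 701 CPM in late libraries and 0, 68.3 and 198 CPM in mid libraries, without overlap (log2 change 2.32, SE 0.40, adjusted p = 3.82e-05). MTG1, a mitochondrial GTPase, had 2050, 2580 and 3530 CPM late and 381, 946 and 1530 CPM mid, also without overlap (log2 change 1.67, SE 0.27, adjusted p = 1.91e-05). The value of MTG1 is uncertain, because its end lies 122 bases from that of SNZ1, a vitamin B6 gene on the opposite strand, and the strand used in counting was not stated. SNZ1 had 53 late and 11 mid counts against 891 and 203 for MTG1, whereas in the single cells at 50 to 60 min SNZ1 had 1320 and 1350 CPM and MTG1 69.5 and 63.1 CPM. ZRT1, the high-affinity zinc transporter, had 388, 462 and 574 CPM late and 114, 145 and 286 CPM mid, without overlap (log2 change 1.40, adjusted p = 0.00431). ACH1, acetyl-CoA hydrolase, had 79.0 to 627 CPM late and 0 to 135 CPM mid (log2 change 1.64, adjusted p = 0.0127; 0.0743 without the 90 min library of culture 1). UFD1, a partner of the Cdc48 segregase, had 125 to 318 CPM late and 31.0 to 98.8 CPM mid (log2 change 1.54, adjusted p = 0.0309), a call that ended without any 1 of 8 libraries (adjusted p 0.0503 to 0.102: culture 1 at 60, 90 and 120 min, culture 2 at 45, 90 and 120 min, culture 3 at 45 and 60 min).

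Outside the ribosomal proteins and histones, the largest log2 falls were those of genes with few counts. INA1 had 5 late and 12 mid counts (log2 change -2.97, adjusted p = 0.0297) and lost its call without any 1 of 7 libraries (adjusted p 0.0516 to 0.143: every 90 min library, the 120 min library of culture 1, the 45 min libraries of cultures 1 and 3 and the 60 min library of culture 3). IES3, of the INO80 chromatin remodelling complex, had 6 late and 22 mid counts (adjusted p = 0.0279) and lost it without the 45 min library of culture 3 (0.253) or the 60 min library of culture 1 (0.0636) or culture 2 (0.111). OLE1, the fatty acid desaturase, was better covered, with 52.7, 131 and 184 CPM late and 191, 342 and 555 CPM mid, without overlap (log2 change -1.64, SE 0.35, adjusted p = 0.00101). FAA3 and FAA4, acyl-CoA synthetases for long-chain fatty acids, had 29.8 to 79.0 and 26.3 to 75.1 CPM late against 38.1 to 302 and 0 to 227 CPM mid (log2 changes -1.90 and -1.61). FAA3 lost its call without the 45 min library of culture 2 (adjusted p = 0.103), and FAA4 without any 1 of 5 libraries (0.0563 to 0.204: cultures 2 and 3 at 45 min, culture 1 at 60 min, cultures 1 and 3 at 90 min). YLF2 had 26.5, 142 and 316 CPM late and 151, 468 and 1180 CPM mid (log2 change -1.66, adjusted p = 0.000999), with overlap. Its untreated level was 1450 to 3050 CPM. Because the strand used in counting was not stated, counts from a gene on the opposite strand could not be told apart, and its value is uncertain. Of the redox defence list, AHP1, a thiol peroxidase, fell to 3390 to 4900 CPM late against 5250 to 10100 CPM mid without overlap, and SOD1, superoxide dismutase, fell too, while PRX1 rose.

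No autophagy, vacuolar protease, ergosterol, purine or phosphate gene passed the test, although only 1 of 18 autophagy genes had enough counts to be tested. With RLE size factors 1 purine and 1 phosphate gene were called higher. All 9 tested purine genes had positive values, with a median log2 change of 0.38, against -0.06 over all genes tested. PRB1, a vacuolar protease, had 175 to 527 CPM late and 69.4 to 302 CPM mid (log2 change 0.30, adjusted p = 0.685), and ATG8, of autophagy, had 8 late and 12 mid counts. HXT1 and HXT7, hexose transporters, had 2 and 3 late and 11 and 1 mid counts. Of 16 tested proteasome genes RPN12 rose, and of 16 translation factor genes TMA19 fell. In the cell wall list CCW14 rose and CIS3 fell out of 16 tested. Each of these is 1 call of 16, near the shares of all genes tested (3.96% higher, 8.02% lower).

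Within the windows, 12 genes differed between 120 and 90 min (1.32% of 910) and none between 60 and 45 min by edgeR on all 33 libraries, where 109 genes had an unadjusted p under 0.05. For 60 against 45 min, DESeq2 called 4 genes, and edgeR called 29 when fitted on the 12 window libraries alone and 17 without culture 2. SSA1, MDH1 and PRY1 (log2 difference 1.93, adjusted p = 0.000748) were the 3 genes higher at 120 min (0.33%). Among the 9 genes lower at 120 min (0.989%) were SHM2, serine hydroxymethyltransferase (log2 difference -1.88, adjusted p = 0.000273), HHT2, a histone H3 gene (-1.63, 0.0109), and CHA1, serine and threonine deaminase (-1.69, 0.0206). RPL41B, ARG4, TKL1, CAR1, ARO9 and RDN25-1, a copy of the large ribosomal RNA, were the others. Leaving out any 1 of the 6 libraries of 90 and 120 min left 1 to 8 calls between these times, and leaving out a culture 1 to 6.

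Separate wild-type cultures of the single-cell experiment gave the same genes' course over the first hour, with no test. A gene was counted as moved when the ratio of its summed, scaled unique molecular identifiers at 50 to 60 min to the untreated intervals was at least 2-fold the same way in both cultures. Of the 42 ribosomal protein genes that fell late in bulk, 41 had moved down in that hour, and RPL41B had not. Among all 910 tested genes 37.4% had moved down. For this hour and its last 20 min, the 89 other tested ribosomal protein genes were not set beside the 42. The shares can therefore not be called particular to the late falls. RPL26B was at 65.6 and 66.9 CPM at 50 to 60 min, against 5360 and 5620 CPM at 20 to 10 min before the drug. Of the other 31 genes that fell late, 14 had moved down, 13 had not moved and 4 had moved up (DAL2, SRL3, CHA1 and IRC7). These counts lie near the shares of all tested genes, 37.4% down and 16.2% up. Over the last 20 min of the hour (40 to 60 against 20 to 40 min, at least 1.5-fold in both cultures), 41 of the 42 ribosomal protein genes and 6 of the other 31 had moved down, against 24.4% of all tested genes, and 0 of the 73 had moved up. DAL2 was at 149 and 114 CPM at 50 to 60 min against 5.26 and 7.04 CPM untreated.

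Of the 36 genes that rose late, 10 had moved up in the first hour (27.8%, against 16.2% of all tested genes). A further 4 had moved down (11.1%, against 37.4% of all) and 22 had not moved. Over the last 20 min of the hour 3 of the 36 had moved up (8.33%, against 3.85% of all), and 5 had moved down (13.9%, against 24.4% of all). CIT2 and HIS4 had moved up, with log2 ratios of 3.78 and 2.76 for CIT2 and 2.31 in both cultures for HIS4, and so had AGP2 (1.83 and 1.51). The 4 that had moved down were YDJ1, AHA1, MBF1 and RPN12. YDJ1 was at 111 and 109 CPM at 50 to 60 min, against 879 and 896 CPM before the drug. GCN4 was within 2-fold of untreated (log2 ratios 0.29 and 0.08). With library totals in place of TMM scaling, 19 of the 36 had moved up and 1 down, against 271 and 223 of all 910, so the split between up and down depends on the scaling. Levels of single genes are not comparable between the assays: across the 910 genes, which are not independent replicates, log2 levels of mid bulk libraries and of single cells at 40 to 60 min had a correlation of 0.631.

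**Figure D5:**
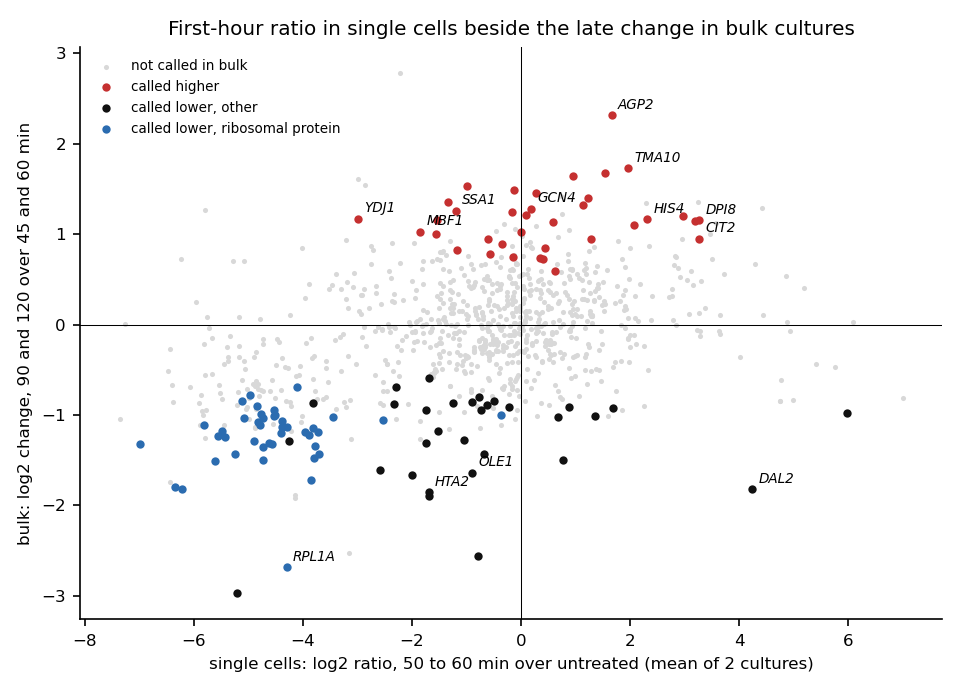
Bulk log2 change, late over mid, of the 910 tested genes against the log2 ratio of 50 to 60 min over untreated in wild-type single cells (mean of 2 cultures). Of the ribosomal protein genes called lower late, 41 of 42 had moved down in the first hour (37.4% of all tested genes), while YDJ1 and MBF1 had moved down and were called higher late.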

How the data were processed

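The authors deposited bulk counts per gene and library for 33 libraries (3 cultures, 11 times) and unique molecular identifier counts per single cell. The submitters' processing notes name bcl2fastq, kallisto 0.46.1, bustools 0.39.3 and the build sacCer3; whether bulk counts are reads or molecules, and which strand was counted, were not stated. Among the called genes, 36 had an overlapping neighbour or one on the opposite strand ending within 300 bases. The unstated strand may therefore bear on more genes than those marked uncertain. Counts were tested with edgeR 4.0.16 in R 4.3.3 (TMM scaling, filterByExpr by time point with a minimum count of 10, robust quasi-likelihood fit of time and culture on all 33 libraries, 20 residual degrees of freedom). The mean of 90 and 120 min was set against that of 45 and 60 min, with Benjamini-Hochberg adjustment over 910 genes and a threshold of 0.05. The biological coefficient of variation was 25.6%. DESeq2 1.42.0 served as an alternative. CPM values printed are counts scaled to a common library size with the TMM factors (0.894 to 1.28), shares are percentages of unscaled library counts, and paired or tripled CPM values of a window give its lowest and highest library, with the median between them where 3 values stand. The script was checked on simulated data.

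The cultures were each sampled repeatedly, per the labels' protocols, so culture was kept as a block; deviations from the time means correlated at a median of 0.132 over 12 same-culture pairs (-0.033 to 0.315) and -0.061 over 24 other pairs (-0.24 to 0.0973). P-values measure the spread between libraries that was left after time and culture were fitted, pooled over all 33 libraries of these 3 cultures.

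Genes were named by a rule: the 12 largest called rises and falls with the same sign in all cultures, plus a fixed set of 20 genes. Further list members were named after their values were seen. The comparison, gene lists and rules were chosen with earlier results of these data known. Wild-type cells of 16 single-cell libraries (2 cultures, 8 intervals) were summed per library and described without a test. Motifs were searched on both strands from 250 bases before to 50 after each annotated start. Other scalings, filters, windows and left-out libraries were tried; thinning, leaving out window libraries under 20000 counts and leaving out YNL143C were added after seeing the data.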

Additional observations from a re-analysis of the deposited data

Results flagged for a closer look

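In 8 of 84 sets of 6 libraries, the highest library passed Dixon's 95% limit (gap to the nearest library over the whole range). That limit's rate of about 1 in 20 assumes independent, normally distributed values. These sets pool times and cultures and several rest on low counts, so 8 of 84 cannot be set against that rate. In the late window, NSR1 (ratio 0.667) had 79.0 CPM at 90 min in culture 3 against 0 to 26.3 CPM elsewhere, and PRB1 (0.651) had 527 CPM at 90 min in culture 2 against 175 to 298 CPM. In the mid window, INA1 (0.826) had 278 CPM at 45 min in culture 1, against 32.9 to 75.6 CPM in the other libraries. The chaperone list's share of counts (0.768) was also highest in that library, at 0.825% against 0.420 to 0.514%. MEP2 (0.739) had 892 CPM at 60 min in culture 1 against 155 to 347 CPM. TMA10 (0.703) had 378 CPM and IDH1 (0.654) likewise 378 CPM at 60 min in culture 2, against 38.1 to 139 CPM for TMA10 and 132 to 217 CPM for IDH1 in the other mid libraries. SSA1 (0.683) had 953 CPM at 45 min in culture 3 against 378 to 560 CPM. The 45 min library of culture 1 and the 60 min library of culture 2 were the shallowest of the 12, with 12358 and 13261 counts.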

How the results depend on the processing

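Of 717 values of the 27 called genes named by rule, each tested in 23 to 28 of 28 alternatives, 601 kept direction and call, 116 kept direction only and 0 turned. These alternatives leave out the settings with a single late or mid time. Of the 109 calls, 12 were kept with 90 min alone as the late window and 82 with 120 min alone. With 45 min alone as the mid window 80 were kept, and with 60 min alone 20. Against 109 late calls, counting every gene gave 40 (70% higher, against 33% before), thinning the 12 libraries to 12358 counts 33, 90 min alone 14 and 60 min alone 20. Leaving out a library gave 63 to 107 and a culture 15 to 70. Without the replicate block there were 83 late calls and 4 between 120 and 90 min. With RLE size factors 110 genes were called, 50.9% of them higher, and the median of all genes moved from -0.06 to 0.06; DESeq2 gave 48.9% higher, a minimum count of 20 gave 43.2%, and the 12 libraries alone 47.7%.

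For 120 against 90 min (12 calls), the 12 libraries alone gave 26, no filter 3, thinning 0, no window library under 20000 counts 7, YNL143C left out 6, leaving out a library 1 to 8 and a culture 1 to 6. For 60 against 45 min (0 calls), the 12 libraries alone gave 29, DESeq2 4, library totals 1, no library under 10000 counts 1, none under 20000 counts 1, leaving out a library 0 to 3 and a culture 0 to 17.

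List medians under RLE, under no filter and over left-out cultures were -0.74, -0.64 and -0.83 to -0.75 for ribosomal proteins (library totals -0.81), -0.61, -0.46 and -0.93 to -0.71 for histones, 0.038, 0.12 and -0.35 to -0.30 for glycolysis, and 0.87, 0.88 and 0.79 to 1.09 for general stress. They were 0.81, 0.88 and 0.70 to 0.93 for chaperones and -0.32, 0.026 and -0.38 to -0.26 for nitrogen genes. For Gcn4 targets they were 0.47 with no filter and 0.23 to 0.50 over cultures. In single cells, library totals gave 19 up and 1 down of the genes that rose late, 7 up of those that fell, and 271 up, 223 down and, over the last 20 min, 55 up of all.

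Uncalled genes with a log2 change near 0 turned sign under some settings. NSR1 was -0.077 without the block, -0.18 with DESeq2, -0.11 to 0.08 over left-out cultures and -0.65 to 1.18 over left-out libraries. MEP2 was -0.0029 with the 12 libraries alone, -0.18 with 6 sums, -0.088 thinned, -0.041 without window libraries under 20000 counts, -0.11 to 0.35 over cultures and -0.08 to 0.43 over libraries. TDH3 was 0.041 with RLE, 0.12 with no filter, 0.014 at a minimum count of 20, 0.028 with DESeq2, -0.06 to 0.0045 over cultures and -0.11 to 0.14 over libraries. FPR1 was 0.092 with no filter, -0.26 to 0.13 over cultures and -0.21 to 0.08 over libraries. Causes were not tested. At the median depth of 41501 counts, 10 counts equal 241 CPM before TMM scaling, so lower genes rest on few counts in each library.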
